A study of Mus musculus with 29 samples.

Results

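A set of 227 genes gave no signal well above background in mouse podocytes before treatment or in the toxin-targeted podocytes 1 day after it, and gave such a signal in all targeted samples at day 4. These genes were picked by that pattern from 20141 named genes on the array. A gene belonged to the set if its brightest probe was not well above background (the scanner software's own flag) on any of the 8 day 0 arrays or the 4 TdTomato day 1 arrays and was well above background on all 4 TdTomato day 4 arrays. Genes of several families that have names starting with Eph, Cxcl, Ccl, Kcn, Krt, Mmp, Col, Thbs, C1q, Cldn, Nrg or Aif1 were left out beforehand, and 6 genes that met the flags were dropped for this reason. Of the 5039 named genes below background on all 8 day 0 arrays, called silent here, the 227 make up 4.5%. By RefSeq type 215 of them are protein coding, 10 are long noncoding RNAs and 2 are transcribed pseudogenes, and 13 have only clone or model names.

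The samples were podocytes sorted from male Pod-hCD25T/G mice (C57BL/6J background, 8 weeks old), which per the labels had a heminephrectomy and then 25 ng of LMB2 per gram of body weight. LMB2 is an immunotoxin: a bacterial toxin that stops protein synthesis, carried into cells by a fragment that binds human CD25. Cells were sorted as TdTomato positive or EGFP positive before the injection (day 0, n = 4 and 4 arrays) and at day 1 (n = 4 and 3), day 4 (n = 4 and 4) and day 7 (n = 2 and 4), TdTomato named first. All groups carry the same transgenes, each array is RNA of 1 of 16 mice, and 13 mice gave both populations. From general knowledge of this model, and not from the labels, TdTomato cells carry human CD25 and are hit by the toxin directly, while EGFP cells lack it and share the glomerulus with them. The labels give 1 treatment protocol for all samples and state that day 0 samples were taken before the injection.

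Podocytes are the specialised epithelial cells that wrap the glomerular capillaries, do not divide in the adult and hold the filtration barrier closed with interlocking foot processes. Each differentiated cell type keeps most genes of other lineages shut, through a lack of the right transcription factors and through closed chromatin. Genes for seminal fluid proteins, gamete proteins, peptide hormones, sarcomere proteins or lymphocyte cytokines are textbook examples of genes that a kidney cell does not normally use.

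The 29 arrays had 48.2 to 65.5% of spots well above background and no saturated spot. Whether their number or their brightness limits the precision more was not tested. All 13 podocyte markers tested, among them Nphs1, Podxl and Wt1, were well above background on every array. Podocyte markers summed to 1495 to 1994 times the array's 75th percentile signal in TdTomato day 4 samples and 2429 to 3944 times in TdTomato day 0 samples. Both arrays of mouse MC221, at day 7, stand apart: the authors' deposited values for these samples do not match their own scanner files, whereas those of the other 27 samples do. Because TdTomato day 7 has only 2 arrays, the counts of called genes at day 7 are also given without MC221. In the TdTomato day 4 sample of mouse MC823 the 11 proximal tubule markers summed to 220 times the 75th percentile signal, against 1.3 to 3.6 in the other 3. The rule without that sample gives 239 genes; the part of tubule cells in the signal of the set was not tested.

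The signal is given as log2 of the processed signal relative to the array's 75th percentile, so a value of 0 means a spot as bright as the 75th percentile, and the lowest signals well above background lay between -5.50 and -3.78 depending on the array. Over the 227 genes the mean TdTomato day 4 signal ran from -4.07 for Il1r2 to 2.99 for Baalc, with a median of -2.43. In sorted bulk samples a signal in few cells and a weak signal in many cannot be told apart. The order is one of probe signals and sets no gene's RNA amount against another's. The 4 day 4 samples ranked the genes alike, with correlations across the 227 genes of 0.86 to 0.92, as a description of arrays that share their probes. Against TdTomato day 1 the day 4 signal was at least 2.09 to 280 times higher, with a median bound of at least 6.49-fold. These bounds compare the day 4 mean with the detection level of each day 1 array, and they describe the choice of the genes and are not tested.

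**Figure D1:**
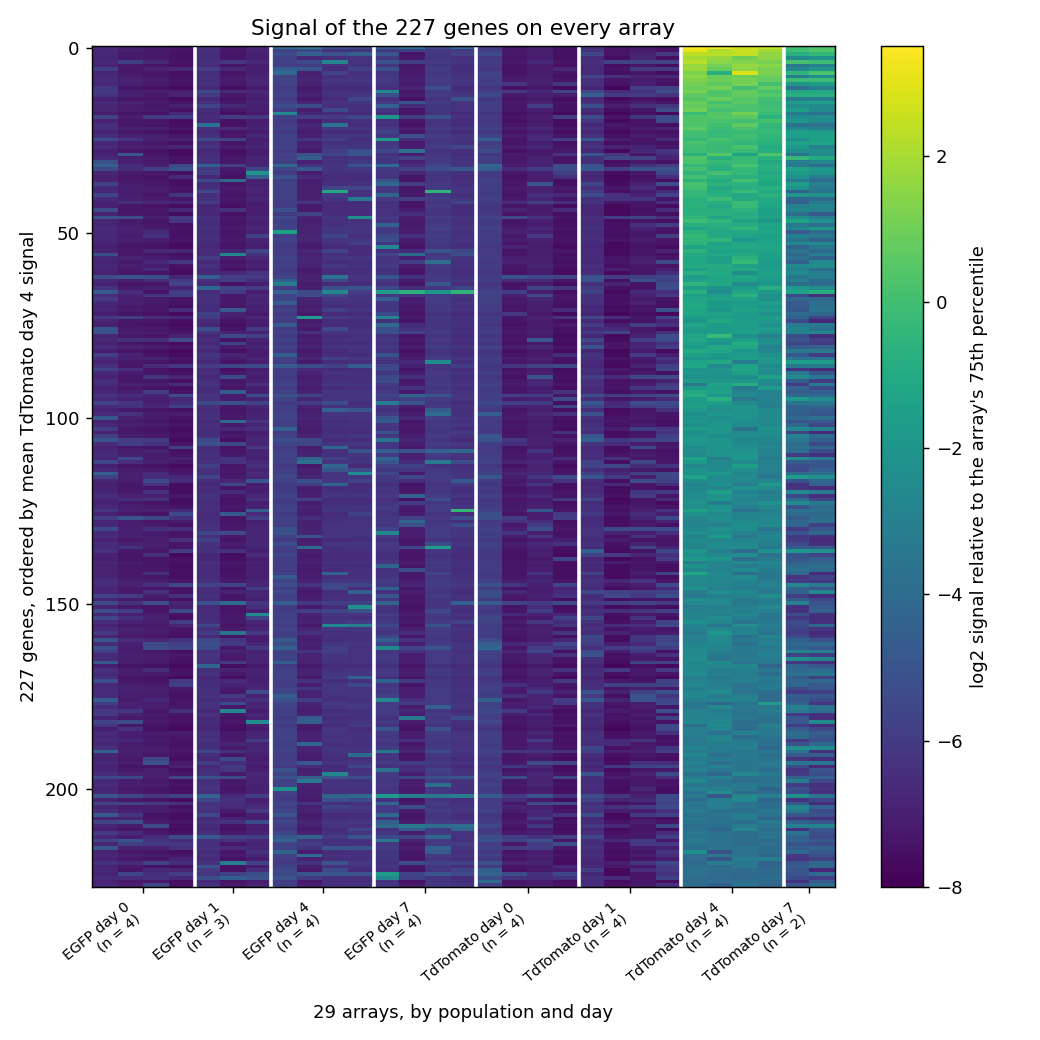
Log2 signal relative to the array's 75th percentile (colour) of the 227 genes (rows, ordered by mean TdTomato day 4 signal) on all 29 arrays (columns, grouped by population and day). The genes were chosen on the 8 day 0 and the TdTomato day 1 and day 4 arrays; the TdTomato day 7 columns lie between the day 1 and day 4 columns for most rows, and the EGFP columns stay near background apart from scattered genes.

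The brightest gene of the set was Baalc, a membrane-associated protein of neural tissue and early blood progenitors. Its signal was 3.37, 3.23, 2.74 and 2.64 in the TdTomato day 4 samples of mice MC151, MC692, MC822 and MC823, and -6.46 at most in the TdTomato day 1 samples. The 4 samples of day 4 all lay far above every earlier one, and their mean was at least 280 times over day 1. Spink2, a Kazal-type protease inhibitor best known from the sperm acrosome, read 3.08, 2.12, 2.52 and 1.85 in the same order. Pstpip1, a cytoskeletal adaptor of blood cells that binds pyrin, read 2.32, 2.24, 2.43 and 1.58. For both genes, as for Baalc, MC823 was the lowest of the 4.

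Peptide hormone precursors were among the bright genes. Pmch, the precursor of melanin-concentrating hormone of the hypothalamus, read 1.97, 1.68, 1.01 and 1.57 at TdTomato day 4. Avp, the precursor of vasopressin, read 1.15, 0.39, 0.77 and 0.14. Grp (gastrin-releasing peptide) had a mean of 0.34 ± 0.43 (SD, n = 4). Gcg, the proglucagon gene, and Hamp, the precursor of the iron hormone hepcidin, were dimmer, at -2.02 ± 0.27 and -1.21 ± 0.67. None of these 5 genes was well above background in any EGFP day 4 sample. The peptide hormones were grouped after their values were seen.

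3 genes of the seminal vesicle secretory cluster belonged to the set. These genes encode abundant proteins of rodent seminal fluid and lie next to each other on chromosome 2. Svs6 read 1.75, 1.09, 1.68 and 1.47 at TdTomato day 4 (MC151, MC692, MC822, MC823). Svs5 read 1.77, 0.79, 1.48 and 1.13, and Svs3a read 1.49, 0.86, 0.86 and 0.94. The 3 genes were close in all 4 samples and had no signal well above background in any EGFP sample of day 4 or day 7. Svs3b, another gene of the cluster, was outside the set because it was already well above background on all 4 TdTomato day 1 arrays, at -3.12 ± 0.85, and it read -0.76 ± 0.45 at TdTomato day 4. Of the 7 genes of this name on the array, all below background at day 0, 4 were on in every TdTomato day 4 sample.

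The 100 bases before the RefSeq start of the 3 Svs genes and of Pmch are printed because all 4 hold the same element at almost the same place. Capitals mark a TATA box (TATAAA) and, in Pmch, an AP-1 motif (TGANTCA).
Svs3a (chr2:164289167-164289266, plus strand, GRCm38.p6): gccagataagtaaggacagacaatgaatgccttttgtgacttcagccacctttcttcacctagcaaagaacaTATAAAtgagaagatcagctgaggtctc
Svs5 (chr2:164332665-164332764, plus strand, GRCm38.p6): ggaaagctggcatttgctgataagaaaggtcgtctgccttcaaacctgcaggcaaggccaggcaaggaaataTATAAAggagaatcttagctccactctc
Svs6 (chr2:164316651-164316750, plus strand, GRCm38.p6): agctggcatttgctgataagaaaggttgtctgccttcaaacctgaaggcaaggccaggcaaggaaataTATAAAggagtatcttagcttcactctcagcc
Pmch (chr10:88090972-88091071, plus strand, GRCm38.p6): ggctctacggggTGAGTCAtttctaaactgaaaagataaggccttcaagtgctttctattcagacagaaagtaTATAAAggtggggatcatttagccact
The TATA box begins 28 bases before the start in Svs3a and Svs5, 32 in Svs6 and 27 in Pmch, and the AP-1 motif of Pmch begins 88 bases before it. These positions are matches of letters and describe the sequence only.

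Such motifs were not common to the set as a whole. RefSeq promoters (250 bases before to 50 after the start, GRCm38.p6) were found for 171 of the 227 genes, 194 promoters in all, and each motif was searched on both strands. TATAAA was in 18.6% of the promoters of the set, in 21.1% of the promoters of genes below background at day 0 and in 13.6% of all promoters. TGANTCA was in 10.3%, 11.6% and 7.8% in the same order. The Runt motif TGTGGT was in 23.7%, 17.7% and 16.8%, the NF-kB motif in 17.0%, 17.8% and 20.7%, and CCAAT in 37.6%, 38.9% and 37.4%. The cAMP response element TGACGTCA was in 1.0%, 1.0% and 1.8%, and the serum response element in 2.6%, 1.4% and 1.6%. The promoters of the set had a median observed over expected CpG ratio of 0.34, against 0.38 for all promoters. It was 0.24 for genes below background at day 0 and 0.70 for genes with signal there. These shares are descriptions and were not tested.

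The immune and acute phase genes of the set came from several cell types' repertoires. Saa3, an acute phase apolipoprotein made outside the liver, read 1.29, 0.91, 1.09 and 0.73 at TdTomato day 4, and its neighbours Saa4 and Saa2 averaged -0.31 ± 0.36 and -1.70 ± 0.46. These are all 3 genes of the family that were below background at day 0; Saa1 was detected there. Itgax (the CD11c integrin of dendritic cells) read 0.99, 0.04, 0.18 and 0.06. Rag1 (the recombinase of developing lymphocytes) averaged -0.79 ± 0.45, Cxcr5 (the B cell follicle chemokine receptor) -0.91 ± 0.35, and Cd3d (a chain of the T cell receptor complex) -0.65 ± 0.36. The other probe of Rag1 was well above background in 2 of the 4 samples, at a mean of -4.42. Ms4a6d and the natural killer receptor gene Klre1 averaged -1.70 ± 0.65 and -2.29 ± 0.23.

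Markers of blood cells were read beside these genes. Of 118 genes on 10 cell type lists 28 were silent, and 1 of these belonged to the set, Cd3d (3.57%, against 4.5% of all silent genes). Not all 28 could belong to it: Aif1, C1qa, C1qc and Krt19 were silent but carry left-out prefixes. Cd3g, a partner of Cd3d, was well above background on none of the 29 arrays. Cd3e, another partner, was on in all samples, at means of 0.96 at TdTomato day 0 and 0.65 at TdTomato day 4. The B cell gene Cd79a averaged -4.86 at TdTomato day 0, on in 1 of 4 samples, and -2.56 at TdTomato day 4, on in all 4. Lyz2, an abundant macrophage gene, was well above background on 1 of 4 TdTomato day 1 arrays and 1 of 4 TdTomato day 4 arrays, and Ptprc on 3 of 4 at each of these days with means of -4.61 and -4.55. The myeloid gene Csf1r was on in every sample, with TdTomato means of 3.36, 6.51 and 3.35 at days 0, 1 and 4. Itgam was also on in every sample, at 5.23, 5.82 and 5.94 in the same order. The 21 myeloid markers summed to 39.0 to 57.2 times the array's 75th percentile signal in TdTomato day 0 samples, 85.6 to 268 at day 1, 49.1 to 118 at day 4 and 48.0 to 79.9 at day 7. The 13 lymphocyte markers summed to 5.85 to 11.1 at TdTomato day 4 and 3.78 to 8.47 at day 0, and 7 of the 13 were on in every TdTomato day 4 sample against 4 at day 0. The part of any such cells in the signal of the lymphocyte genes was not tested.

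Cytokines of the set were the type 2 cytokine genes Il13 and Il5, which neighbour each other on chromosome 11, with Il6 and the interferon gene Ifna16. Il13 averaged -1.59 ± 0.45 at TdTomato day 4, Il6 -2.65 ± 0.33, Il5 -3.53 ± 0.28 and Ifna16 -3.87 ± 0.14. They are 4 of the 58 genes of the cytokine and growth factor list that were below background at day 0 (6.9%). Among receptors, 3 of 21 such genes belonged to the set: Il2ra, Tnfrsf13c (the BAFF receptor) and Il1r2 (the decoy receptor of interleukin-1). Il2ra is the mouse counterpart of the human CD25 that the toxin binds, and it read -2.22, -2.78, -3.56 and -3.23 at TdTomato day 4. It was not well above background on any EGFP array or on either TdTomato day 7 array.

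Germ line genes, which serve meiosis, sperm and egg, were part of the set. Of 109 germ line genes below background at day 0, 8 belonged to the set (7.34%). Stra8, which starts meiosis under retinoic acid, read -0.18, 0.40, 1.09 and -0.18 at TdTomato day 4. The neighbouring oocyte-secreted protein genes Oosp2 and Oosp1 averaged 0.17 ± 0.46 and -0.70 ± 0.41, and Syce3, a protein of the synaptonemal complex, -0.59 ± 0.55. Zp1 of the egg coat averaged -1.01 ± 0.50 and the meiotic recombinase gene Dmc1 -2.18 ± 0.73, and of its 2 other probes 1 was well above background on an earlier array. Stag3 (a meiotic cohesin), Terb2 (which tethers meiotic telomeres) and Ctcfl (the testis paralogue of CTCF) also belonged to the set but to no list.

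Of the function lists, striated muscle had the highest share of its silent genes in the set, 6 of 26 (23.1%). Actc1 (cardiac actin) read -0.05, -0.21, -0.03 and -0.47 at TdTomato day 4, and Actn3 (the alpha-actinin of fast fibres) read 0.18, -0.13, -0.43 and -0.64. The troponin genes Tnni1 and Tnni3 averaged -1.60 ± 0.15 and -3.01 ± 0.42, Ttn (titin) -2.81 ± 0.26 and Myoz2 -3.18 ± 0.71. The probes of titin disagreed, with 1 of its 3 other probes well above background in all 4 samples. Ryr1, the calcium release channel of skeletal muscle, is counted with the ion channels and averaged -1.15 ± 0.38.

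Of 94 developmental transcription factor genes below background at day 0, 6 belonged to the set (6.38%). They were Ovol1 (-0.69 ± 0.29), Tbx4 (-0.93 ± 0.23), Six6 (-1.04 ± 0.69), Prrx2 (-2.09 ± 0.90), Dlx1 (-2.87 ± 0.45) and Lhx4 (-3.08 ± 0.83), factors of skin, limb, eye, connective tissue and brain development. Esr1, the nuclear receptor for oestrogen, was brighter and the most uneven of the 12 brightest genes, at 1.24, -0.75, 2.86 and 1.24 at TdTomato day 4. MC692 was low and MC822 high for it. Both other probes of Esr1 were on in all 4 samples, at means of 0.29 and -2.63, the brighter of them also on 1 earlier array.

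The G protein-coupled receptors had the lowest such share of the function lists. Of 1138 silent genes of this list, 790 of them olfactory receptors, 15 belonged to the set (1.32%). Cxcr5 led them, followed by Olfr223 (-1.52 ± 0.40), Npy5r (a neuropeptide Y receptor, -1.71 ± 0.92) and Gpr176 (-2.25 ± 0.23); the pattern behind this list also took in Htr3b, which is an ion channel. Ion channels gave 2 of 81, with Cacna1f at -1.16 ± 0.40, and transporters 3 of 117. Protease and inhibitor genes gave 5 of 120, led by Spink2 and then Serpind1 (heparin cofactor II, -0.91 ± 0.40), Prss39 (-1.56 ± 0.45) and Serpinb5 (maspin, -2.57 ± 0.44). Epidermal genes gave 2 of 46, Gsdmc4 (0.19 ± 0.56) and Tgm1 (-2.65 ± 0.64); neuronal genes 3 of 59, Cbln4 (-2.52 ± 0.28), Nxph2 (-2.80 ± 0.29) and Grm8 (-3.29 ± 0.44); and cadherins 2 of 26, Cdh17 (-2.29 ± 0.21) and Cdhr1 (-2.77 ± 0.47). The share of all silent genes that met the rule was 4.5%, and since the rule chose the genes these shares are given without a test. In all, 72 of the 227 genes fell in a function list and 155 in none.

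**Figure D2:**
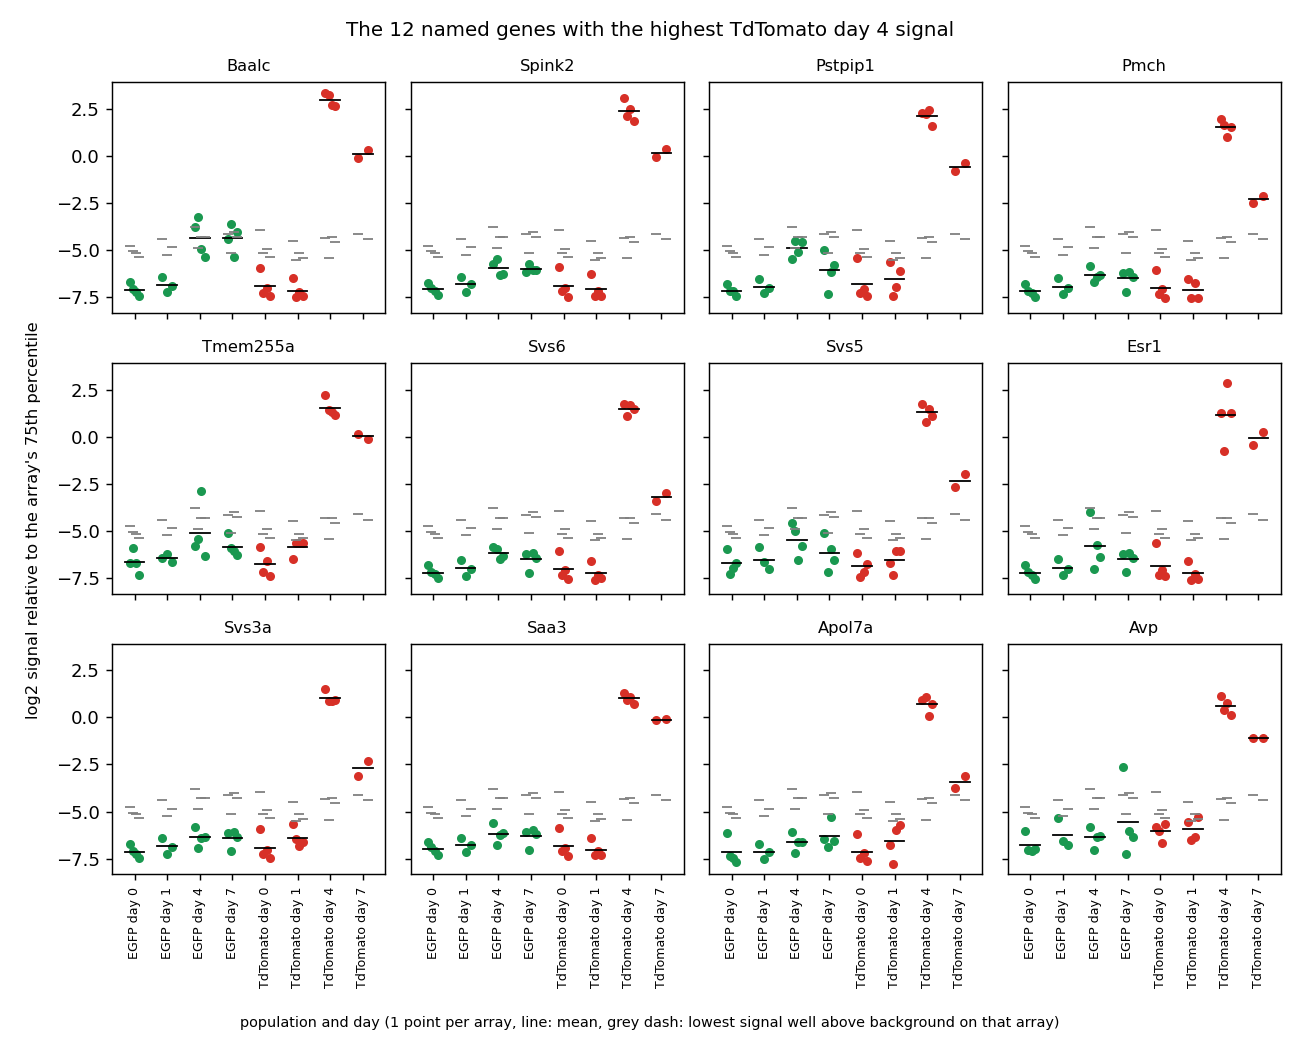
Log2 signal relative to the array's 75th percentile on each array for the 12 named genes with the highest mean TdTomato day 4 signal (green: EGFP, red: TdTomato, line: group mean, grey dash: lowest signal well above background on that array). None of the 12 is flagged well above background at day 0 or TdTomato day 1, as the rule demands, although a point above a dash need not carry the flag. All 12 are flagged well above background in both TdTomato day 7 samples.

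Some genes of the set lie near each other. The share of such neighbours among all silent genes was not computed, so their number describes the set only. On GRCm38.p6 there were 18 groups of genes with starts within 150 kb of the next member, 4 groups of 3 and 14 pairs, which together hold 40 of the 227 genes. Besides the Svs, Saa, Il13 and Il5 groups they include the placental prolactin genes Prl8a8, Prl8a9 and Prl7a2 on chromosome 13, Oosp2 and Oosp1 with Ms4a6d on chromosome 19, and Baalc with Cthrc1 on chromosome 15. The 3 prolactin genes averaged -2.57 ± 1.02 (Prl8a8), -0.34 ± 0.53 (Prl8a9) and -3.77 ± 0.37 (Prl7a2) at TdTomato day 4. Another prolactin gene, Prl2a1, lay outside the set because it was on in all 4 TdTomato day 1 samples at 1.35 ± 0.65 and read 4.55 ± 0.56 at day 4. Probes of near-identical family members can share signal, as among the alpha-defensins Defa3, Defa21, Defa32 and Defa37, and such genes are uncertain one by one.

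The edge of the rule was not a gap in the data. A further 161 genes missed it by 1 array of 16: 31 at day 0, 74 at TdTomato day 1 and 56 at TdTomato day 4. The brightest of those just outside were Ripk4 (3.45 ± 0.40 at TdTomato day 4) and Cwh43 (1.51 ± 0.19), which missed by a day 0 array, and Ccr6 (1.67 ± 0.53) and Stmn3 (1.48 ± 0.14), which missed by a TdTomato day 1 array. Just inside were Elovl4 (-3.81 ± 0.56), Olfr922 (-3.94 ± 0.13), Gpr85 (-3.98 ± 0.10) and Cenph (-3.93 ± 0.23). The highest day 0 signal of Gpr85, -4.06, lay above its lowest TdTomato day 4 signal, -4.09, so the flag parts these samples and the signal does not. For Cenph the same values were -4.32 and -4.17. Of the 502 genes below background on all day 0 arrays and on in all 4 TdTomato day 4 samples, 233 were on in no TdTomato day 1 sample and 136 in all 4 of them. The TdTomato day 1 sample of mouse MC831 detected 709 of the 5039 silent genes, against 294 to 374 in the other 3, and without it 280 genes would meet the rule.

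"Below background" is a matter of the flag. By the software's weaker flag, signal positive and significant against the local background, 75, 86, 91 and 149 of the 227 genes were already detected in the TdTomato day 1 samples (MC125, MC541, MC542, MC831), or 33.0 to 65.6%. The same flag was set for 31.3 to 54.0% of all 5039 silent genes in those samples and for 19.4 to 36.1% of the 227 genes at day 0. With this flag in place of the stricter one 61 genes would meet the rule, 30 of them shared. The genes of the set are therefore genes with little or no signal before day 4, and not genes shown to be without transcripts.

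Day 7 in TdTomato cells was not used to choose the genes. A signal well above background was present for 98 of the 227 genes in MC221 and 114 in MC791 (43.2 and 50.2%), against 6.15 and 7.02% of the other silent genes. On both arrays 86 genes were detected (37.9%), on 1 array 40, and on none 101. Among all 5039 genes silent at day 0, 5.36% were on in both day 7 samples. Of the 184 silent genes that were on in all TdTomato samples by day 1, 72 were on in both (39.1%), a share close to that of the set. By the weaker flag 201 and 199 of the 227 were still detected at day 7.

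**Figure D3:**
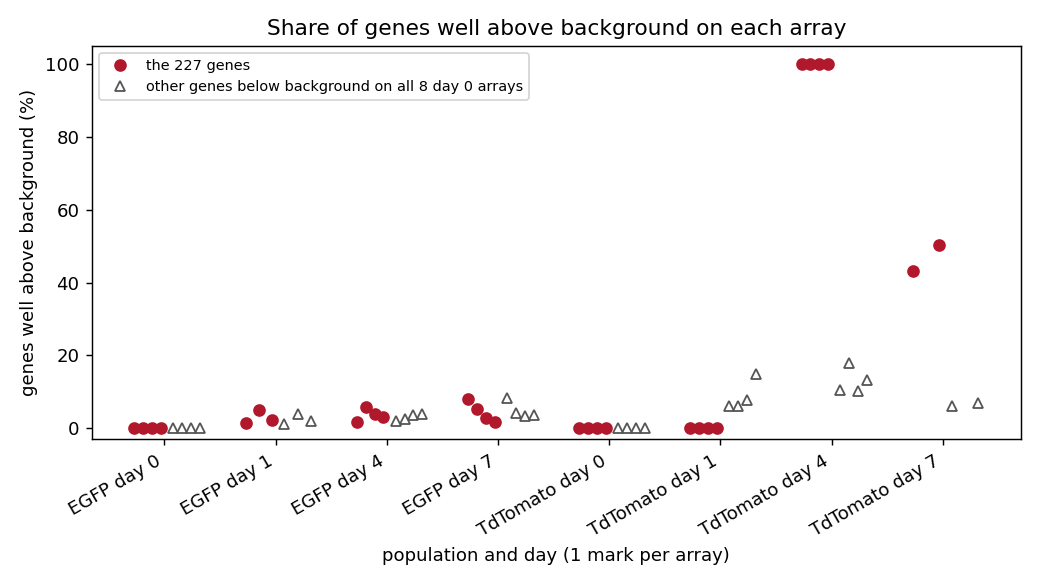
Percent of genes well above background on each array, for the 227 genes (filled circles) and for the other genes below background on all 8 day 0 arrays (open triangles), by population and day. The circles at day 0, TdTomato day 1 and TdTomato day 4 are fixed by the rule. At TdTomato day 7 they stand at 43.2 and 50.2%. In EGFP samples of days 1, 4 and 7 they lie between 1.32 and 7.93%, mostly among the triangles. The EGFP day 4 sample of MC692 stands higher, at 5.73% against 2.41%.

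The signal of most genes was lower at day 7 than at day 4. The difference of the TdTomato means, day 7 minus day 4, had a median of -2.05 over the 227 genes, against 0.24 over all genes, and was below 0 for 217 genes. For 190 genes both day 7 samples lay below all 4 day 4 samples. Day 4 chose the genes for being high, so this fall is a description and carries no test. The median was -1.87 with MC221 alone and -2.08 with MC791 alone. Of the 57 genes brightest at day 4, 48 were on in both day 7 samples and none was lost from both, whereas of the 57 dimmest 6 were on in both and 40 in neither.

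The course differed from gene to gene. The steepest difference was that of Svs6, at -3.39 and -2.97 in the day 7 samples of MC221 and MC791 against 1.09 to 1.75 at day 4, a difference of -4.68. Its neighbours Svs5 and Svs3a were also below every day 4 sample, at means of -2.33 and -2.70 (n = 2). Apol7a, of the apolipoprotein L family, read -3.76 and -3.09 after a day 4 mean of 0.69. The probes of Apol7a disagreed: another was not well above background in any TdTomato day 4 sample, at a mean of -6.65. Myrfl, Kif26b and Xkr7 were no longer well above background in either sample (measured differences of -4.54, -4.44 and -4.40, of which the day 7 side is background). Saa3 read -0.14 and -0.08, a smaller difference of -1.12, with both samples below its day 4 range of 0.73 to 1.29. Spink2 (-0.03 and 0.36) and Baalc (-0.09 and 0.31) were still bright after differences of -2.22 and -2.89.

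10 genes were at least as high at day 7 as at day 4. Oprk1, the kappa opioid receptor gene, had the largest difference, 0.93, with -2.32 and -2.49 at day 7 and -2.85, -3.24, -3.13 and -4.12 at day 4. Both day 7 samples lay above all 4 of day 4. Camk1d (a calmodulin-dependent kinase, 0.68), Smoc1 (a secreted BMP antagonist, 0.64) and Slc13a4 (a sulfate transporter, 0.57) followed. The others were Terb2 (0.52), Cnn1 (0.45), Cthrc1 (0.45), Tecta (0.25), Srsf12 (0.06) and Sall3 (0.03). For Cnn1, smooth muscle calponin, -1.36 and -0.77 at day 7 lay inside or next to the day 4 range of -2.41 to -0.69.

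**Figure D4:**
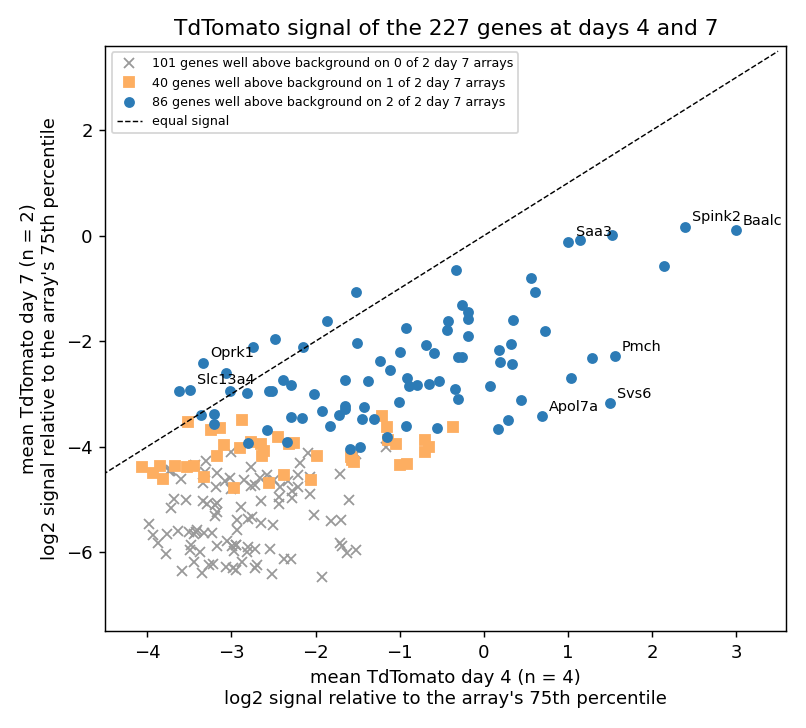
Mean TdTomato signal at day 4 (n = 4) against day 7 (n = 2) for the 227 genes, both as log2 relative to the array's 75th percentile, marked by the number of day 7 samples in which the gene was well above background. Most points lie below the dashed line of equal signal, with a median difference of -2.05, and 10 lie on or above it.

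At day 7 the TdTomato and EGFP samples could be compared by a test, since neither group chose the genes. The estimate of the spread came from all 29 arrays, however, among them the 16 that chose the genes. With limma and Benjamini-Hochberg adjustment over 15593 genes, 117 of the 227 genes (51.5%) were higher in TdTomato than in EGFP podocytes, and 0 were lower (also 0 at an unadjusted p under 0.05). Over all genes tested the same call was made for 6.2% higher and 0.814% lower. The lack of lower calls was largely set by the choice of genes. In no EGFP day 7 sample were 195 of the 227 well above background, so TdTomato had little room to be lower. All 227 also passed the filter of the fit through the TdTomato day 4 arrays. Endothelial markers moved with this contrast: the 11 markers summed to 54.5 to 94.2 times the 75th percentile signal in TdTomato day 7 samples and 10.6 to 14.8 in EGFP day 7 samples. The 10 distal nephron markers summed to 3.55 to 61.7 and 2.08 to 27.7. The part of such cells in the 117 calls was not tested. The median log2 difference was 1.93 over the set and -0.18 over all genes. For 141 genes both TdTomato samples lay above all 4 EGFP samples. Within mouse MC221 the TdTomato value was the higher for 205 genes (median difference 1.56) and within MC791 for 215 (2.69); each pair shared a slide. Without both MC221 arrays the count was 92 (618 of all genes), a fit in which TdTomato day 7 is 1 array assumed to vary like the other groups. In a fit of only the 4 groups the rule did not use it was 99 (936 of all genes). With the mouse as a block it was 126. With normexp background correction (offset 50) it was 55. Of the 86 genes on in both TdTomato day 7 samples 79 were called, of the 40 on in 1 sample 23, and of the 101 on in neither 15. For those 15 the measured difference is between signals of which the TdTomato side was not well above background.

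By measured log2 difference Esr1 and Saa3 came first and by the bound Spink2, since none of their EGFP day 7 signals was well above background. Esr1 read -0.43 and 0.25 in the TdTomato day 7 samples and was not well above background in any of the 4 EGFP day 7 samples, at least 19.7 times higher (log2 difference 6.41 ± 0.72 SE, limma adjusted p = 1.16e-06). Saa3 differed by 6.21 ± 0.36 (SE, limma adjusted p = 8.37e-11; at least 19.3-fold), and Spink2 by 6.15 ± 0.39 (SE, limma adjusted p = 2.73e-10; at least 23.5-fold). Tmem255a (5.86), Pstpip1 (5.48) and Trim40 (5.43, a ubiquitin ligase of the gut) completed the leading 6. All 6 stayed past the threshold under each of the 16 alternatives run, with limma adjusted p of at most 0.00165. The sizes depend on how background is treated: the lowest differences over the alternatives were 2.25 for Esr1, 2.02 for Saa3, 2.30 for Spink2, 2.20 for Tmem255a, 1.78 for Pstpip1 and 1.77 for Trim40. In each of them both TdTomato day 7 samples were well above background and no EGFP day 7 sample was.

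The calls fell in most of the function lists. Of the 8 germ line genes 6 were called higher in TdTomato at day 7, of the 6 developmental transcription factors 4, and of the 5 proteases and inhibitors 4. Of the 13 immune surface and innate genes 4 were called, of the 6 muscle genes 2 (Actn3, 5.15 ± 0.39, and Actc1, 4.44 ± 0.39, SE) and of the 15 receptors 6. Of the 4 cytokine genes Il13 (2.39 ± 0.47 SE, limma adjusted p = 0.00137) and Il5 (1.96 ± 0.47 SE, limma adjusted p = 0.00931) were called and Il6 (0.64 ± 0.44 SE) and Ifna16 (0.61 ± 0.68 SE) were not. Il2ra (0.36 ± 0.50 SE) and Cd3d (1.04 ± 1.35 SE) were not called either. All 3 Svs genes were called, at 3.33 (Svs6), 3.86 (Svs5) and 3.71 (Svs3a), as were Pmch (4.19) and Avp (4.49). Differences between groups in these counts were not tested.

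In most EGFP samples the share of the set with signal lay near that of other silent genes. It was 5.73% against 2.41% in the EGFP day 4 sample of MC692, and 1.76% against 3.74% in the EGFP day 7 sample of MC943. At EGFP day 4, 4, 13, 9 and 7 of the 227 genes were well above background (MC151, MC692, MC822, MC823), or 1.76 to 5.73%, against 1.89 to 3.99% of the other silent genes. No gene was on in all 4 EGFP day 4 samples, where 0.0992% of silent genes were, and 195 were on in none. At EGFP day 1 the counts were 3, 11 and 5 and no gene was on in all 3 samples (0.0198% of silent genes were), and at EGFP day 7 they were 18, 12, 6 and 4 (MC221, MC791, MC824, MC943). Cnn1 and Slc13a4 were the only 2 on in all 4 EGFP day 7 samples (0.881%, against 0.357% of silent genes).

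The EGFP signal gained from day 1 to day 4 was set against the gain in TdTomato cells, which chose the genes, so a low share is partly built in and carries no test. Taking linear signals, the EGFP gain was 1.94% of the TdTomato gain for the median gene, with quartiles of 0.484 and 4.89%. For the 12 brightest genes, passing over 1 with a clone name, it ran from -0.129% for Avp to 1.22% for Tmem255a, with a median of 0.225%. The whole-set value moves with the treatment of background and is 0.757% without the EGFP day 4 sample of MC151, 5.95% with normexp correction and 0.495% after quantile normalization. The highest values, 62.0% for Obp2a, 52.2% for Ak5 and 45.6% for Irf4, come from genes well above background in only 1 or 2 of the 4 EGFP samples. At the other end 36 genes lay below 0, down to -47.7% for Elovl4.

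At the adjusted threshold, EGFP podocytes showed few changes in the set. From day 1 to day 4 limma called 1 of the 227 genes higher and 0 lower, against 0.276% and 0.0192% of all genes tested. Most of the 227 had little room to fall, since 208 were on in no EGFP day 1 sample and 195 in no EGFP day 4 sample. At an unadjusted p under 0.05, 26 of 227 were higher (796 of all 15593 genes, or 5.1%) and 1 lower (0.441%, against 1.65%). The 1 gene was Baalc, which read -3.78, -3.23, -4.92 and -5.37 at EGFP day 4 (MC151, MC692, MC822, MC823) after -6.41, -7.23 and -6.91 at day 1. All 4 samples of day 4 were above all 3 of day 1, but only 1 of them was well above background, and the TdTomato day 4 signal of the same mice was at or above 2.64. The difference was 2.53 ± 0.45 (SE, limma adjusted p = 0.0102); the call is lost without the EGFP day 1 sample of MC541 or that of MC542, with normexp correction, and in a fit of the groups the rule did not use. The median difference over the set was 0.50, against 0.11 over all genes. The fifth percentile of all genes, a measure of the background floor, averaged -7.05 at EGFP day 1 and -6.53 at EGFP day 4. The part of the floor in the median difference of the set was not tested.

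From day 1 to day 7, 6 of the 227 genes were called higher in EGFP cells (2.64%) and 0 lower, against 5.18% and 2.03% of all genes tested. The choice of genes partly set these shares and those from day 4 to day 7, since all 227 passed the filter through the TdTomato day 4 arrays. Most had little room to fall: 208 were on in no EGFP day 1 sample, 195 in no day 4 sample and 195 in no day 7 sample. At an unadjusted p under 0.05, 23 were higher (10.1%, against 11.1% of all genes) and 1 lower (0.441%, against 7.58%). From day 4 to day 7, 4 were called higher (1.76%) and 0 lower, against 2.97% and 1.72%, and at an unadjusted p under 0.05 there were 5 and 3 (2.2% and 1.32%, against 6.76% and 8.13% of all genes). Without MC221, 8 genes were called higher from day 1 to day 7 and 3 from day 4. With the slide as a block 18 genes were called higher from day 1 to day 7 (1389 of all genes), with the authors' deposited values 12 (1091 of all genes), and with normexp correction 1 (672 of all genes).

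Cnn1 made the clearest change of these. It read -6.60, -5.96 and -7.07 at EGFP day 1, -4.37, -5.41, -2.62 and -6.01 at EGFP day 4 and -1.65, -0.60, -2.05 and -0.47 at EGFP day 7. Every day 7 sample was above every earlier EGFP sample. The rise was 5.35 from day 1 (SE 0.69, limma adjusted p = 8.45e-06, at least 12.4-fold) and 3.41 from day 4 (SE 0.64, limma adjusted p = 0.00133), and it passed the threshold under all 17 and 18 alternatives run. Its size was 1.54 and 1.22 with normexp correction. At day 7 the Cnn1 means were -1.06 in TdTomato and -1.19 in EGFP cells, a difference of 0.13 ± 0.78 (SE, limma adjusted p = 0.927).

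Camk1d rose in EGFP from -6.97 at day 1 and -6.36 at day 4 to -3.80 at day 7, with -4.08, -3.35, -3.90 and -3.89 in the 4 samples, 2 of them well above background. The rise was 3.16 from day 1 (SE 0.46, limma adjusted p = 5.29e-05), and only normexp correction ended the call. Another probe of Camk1d was not well above background in any TdTomato day 4 sample. Slc13a4 rose by 2.75 from day 1 (SE 0.68, limma adjusted p = 0.0110) to -1.80, -3.13, -3.46 and -3.06, a call lost without the EGFP day 1 sample of MC541 or of MC542, with normexp correction (limma adjusted p = 0.139) and in the fit of the groups the rule did not use (0.0556). Its call from day 4 to day 7 is lost without MC221 (limma adjusted p = 0.0773). Cd109, a surface protein that binds TGF-beta receptors, rose by 2.37 (SE 0.41, limma adjusted p = 0.000424), a measured difference between signals that were not well above background on either day, and the call is lost with normexp correction (limma adjusted p = 0.549). The day 7 test between TdTomato and EGFP made no call for Camk1d (0.86 ± 0.52 SE) or Slc13a4 (-0.06 ± 0.77 SE), with limma adjusted p of 0.336 and 0.966. For Baalc TdTomato was higher by 4.45 ± 0.51 (SE, limma adjusted p = 1.38e-06).

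**Figure D5:**
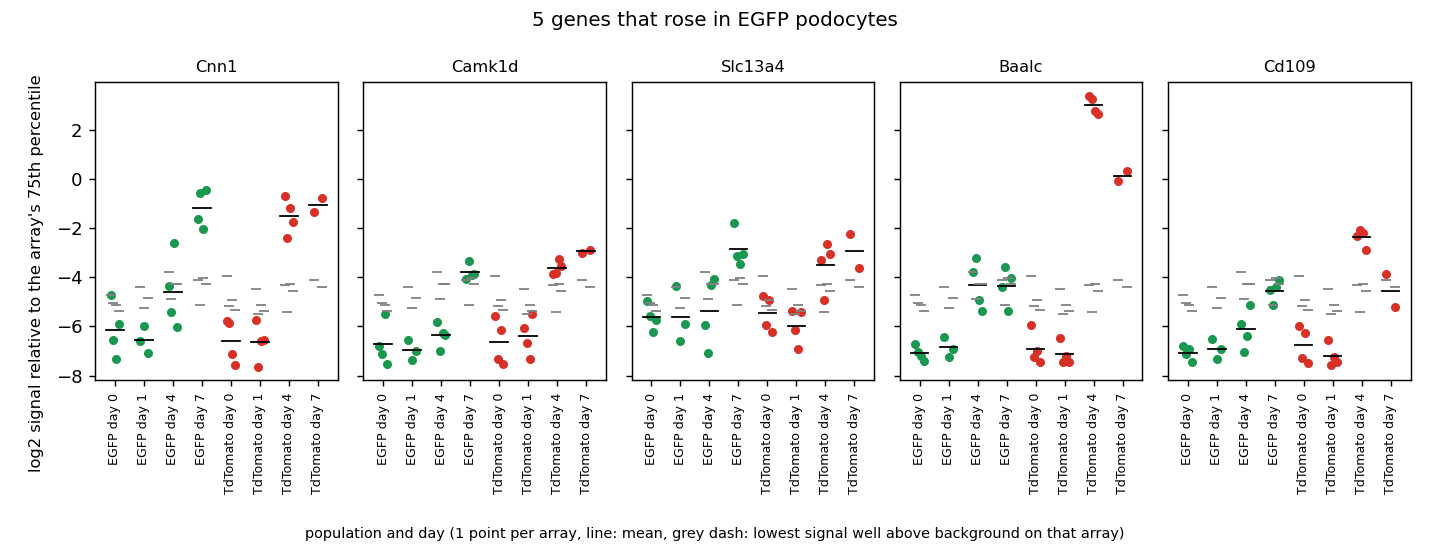
Log2 signal relative to the array's 75th percentile on each array for 5 genes that passed the test in EGFP podocytes (green: EGFP, red: TdTomato, line: group mean, grey dash: lowest signal well above background on that array). Cnn1 and Slc13a4 are above the dashes in all 4 EGFP day 7 samples, while Baalc in EGFP stays near them and far below its TdTomato day 4 level.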

How the data were processed

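Cy3-labelled RNA of each sample was hybridised to a 1-colour Agilent array. Per the file headers, the authors deposited scanner output of Agilent Feature Extraction 11.5.1.1, whose processed signal is a background-subtracted intensity. The deposited series table holds log2 values and was used as an alternative only. From the intensity, log2 minus the array's 75th percentile was computed, spots of a probe were averaged, and non-uniform and outlier spots were set aside. A gene is its probe with the highest mean. By accession (RefSeq, GRCm38.p6) 26576 probes had a symbol and 29105 had none. In the set 27 genes had several probes. Of their 32 other probes, 11 were well above background in all 4 TdTomato day 4 samples and 10 in none.

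limma 3.58.1 (R 4.3.3) was fitted to 8 group means over 29 samples for 15593 genes well above background on at least 3 arrays, with Benjamini-Hochberg adjustment and a threshold of 0.05, and was tested on simulated data. No contrast that holds day 0, TdTomato day 1 or TdTomato day 4 was tested. Both populations of 13 mice came from the same animal, so mouse numbers pair samples (pair correlations 0.041 to 0.636). "At least" folds set a gene's mean against each array's lowest signal well above background.

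The genes and lists were chosen with earlier results of these data known. Named genes are the 12 brightest at TdTomato day 4, up to 4 per list, up to 6 per tested contrast and direction, the 4 largest and smallest day 7 differences, and 4 on each side of the rule's edge; other names were chosen after their values were seen. Alternatives covered background correction, normalization, filters, the deposited values, slide and mouse blocks, samples in the fit and leaving out each replicate. The normexp alternative used median spot signals in place of the planned mean signals. 1 gene called in EGFP podocytes is counted but not reported here by name.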

Additional observations from a re-analysis of the deposited data

Results flagged for a closer look

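For 3 of 41 groups of 4 arrays examined, the highest array stood far from the others; chance alone gives about 1 in 20. Svs3a read 1.49 in the TdTomato day 4 sample of MC151, against 0.86 to 0.94 in the other 3. The summed proximal tubule markers were 220 times the 75th percentile signal in the TdTomato day 4 sample of MC823, against 1.3 to 3.6 in the others, and reached 6.52 in 1 EGFP day 4 sample.

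Probes that have no gene symbol here also carried the pattern. Of 29105 such probes, 170 met the same flags at day 0, TdTomato day 1 and TdTomato day 4. Their median TdTomato day 4 signal was -2.66 and the highest was 2.74, and 50 were well above background in both TdTomato day 7 samples.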

How the results depend on the processing

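No result reversed its direction under any alternative, and for single named genes 258 of the alternative values stayed on their side of the threshold and 29 no longer passed it. For EGFP day 4 against day 1, genes called higher numbered 0 with normexp, 2 with quantile normalization, 2 with the deposited values, 3 with the slide as a block, 0 in a fit of the 4 groups the rule did not use, and 0 to 1 when replicates were left out. For EGFP day 7 against day 1 they numbered 1 with normexp, 12 with the deposited values, 18 with the slide as a block and 4 to 7 without single replicates; genes called lower numbered 1 with quantile normalization, 1 without MC221 and 0 to 1 without single replicates. For EGFP day 7 against day 4, higher calls numbered 1 with normexp, 2 in the 4-group fit and 2 to 4 without single replicates, and lower calls 2 with quantile normalization, 1 with the deposited values and 1 in the 4-group fit. For TdTomato against EGFP at day 7 the count was 55 with normexp and 80 to 124 without single replicates, lowest without the TdTomato sample of MC221. With the mouse as a replicate block the higher calls were 1, 6 and 4 for the EGFP contrasts and 126 for TdTomato against EGFP, so the pairing moved no count by more than 1.5 times. By the weaker detection flag 61 genes met the rule, and 16, 10, 9 and 182 genes were detected on every array of EGFP days 1, 4 and 7 and TdTomato day 7; without 1 replicate the last count was 98 to 114 and the rule gave 227 to 280 genes. The EGFP share of the day 4 gain was 5.95% with normexp, 0.495% after quantile normalization, 7.85% without subtraction of day 1, and 0.757 to 2.31% without single EGFP samples. The cause of these shifts was not tested. Most genes of the set lie near background in EGFP cells, and TdTomato day 7 has 2 arrays, which limits every statement on that day.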
